A study of Mus musculus with 6 samples.

Results

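The genes described here are the nucleoporins, which build the nuclear pore, and the receptors and Ran-cycle proteins that carry cargo through it. They were chosen by gene symbol alone, with a naming pattern for nucleoporins, importins, exportins, karyopherins and transportins plus a short list of named partners, and 60 of the 52535 rows of the authors' deposited table matched. The cells were E14, an established line of mouse embryonic stem cells, kept in N2B27 medium with LIF and the kinase inhibitors known as 2i, which hold naive pluripotency. One group was transfected with a control siRNA (labelled wild type) and the other with an siRNA against Npm1 (labelled as an Npm1 knockdown). Collection was at 3 days after transfection for both groups of 3 samples, and poly(A)-selected RNA was sequenced. The siRNA target, nucleophosmin, is an abundant nucleolar protein, found in the granular component.

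The nuclear pore is a ring of stacked scaffold subcomplexes set in the nuclear envelope, with a central channel lined by nucleoporins rich in phenylalanine-glycine (FG) repeats. Importins bind cargo in the cytoplasm and release it in the nucleus when they meet Ran bound to GTP, whereas exportins bind cargo together with Ran-GTP and release it once GTP is hydrolysed in the cytoplasm. Nucleophosmin itself shuttles between nucleolus, nucleoplasm and cytoplasm, its export uses the receptor Xpo1, and ribosomal proteins and ribosomal subunits that meet in the nucleolus are carried by importins and exportins of this set.

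The authors' deposited table gives 1 mean normalized count per gene over the 6 libraries, 1 log2 fold change and 1 p, so no value per sample and no SD can be given. Group levels quoted below are approximate and were derived from the pooled mean and the fold change, and each interval is a 95% interval implied by the fold change and its p. Npm1 was at about 186392 normalized counts in control and 84458 after Npm1 siRNA (45.3%, log2 -1.14 in the authors' deposited table, Benjamini-Hochberg adjusted p = 5.35e-49), and the header does not state a direction, so every direction here was read from that fall. Nothing in the labels says that the samples of a group were grown separately, and the p-values cover no more than the variation among these 6 samples, possibly technical. The 12 embryonic stem cell markers checked had means between 3740 and 23793 in the authors' deposited table. Of these 12, Sall4 was called higher (log2 0.26 in the authors' deposited table, Benjamini-Hochberg adjusted p = 0.00277), and Lin28a, not called, was at -0.19 (Benjamini-Hochberg adjusted p = 0.0758). Of 12 fibroblast markers, 7 were under a mean of 10 and the highest, Fbn1, was at 68.8 in the authors' deposited table. Of 14 primitive endoderm markers 9 were tested, 7 of them with negative values, and Sparc was called lower at a log2 fold change of -0.23 in the authors' deposited table. Levels in this list were split. Sparc, Lama1 and Lamb1 had means of 7129, 5452 and 2249, Col4a1 was at 181, and the others, including Gata4 and Gata6, were at 34.4 or below. In bulk RNA, fewer cells of a type and less RNA per cell cannot be told apart.

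No nucleoporin, transport receptor or Ran-cycle gene passed the test after Npm1 siRNA in either direction. Of the 60 genes, 59 had a mean normalized count of at least 10 and were tested, and 0 were higher and 0 lower at an adjusted p under 0.05, where 2.23% and 2.07% of the 14284 tested genes were higher and lower (4.30% together). Of the 4813 tested genes with a mean of at least 1000, 222 were higher and 147 lower, against 0 and 0 of the 54 members at that level. Without adjustment, 10 of the 59 (16.9%) had a deposited p under 0.05, against 16.3% of all tested genes. At a mean of at least 1000 these shares were 18.5% of the members and 23.9% of tested genes. The difference from genes of like level was not tested. Of those 10, 7 had a positive log2 fold change (8.47% of all tested genes) and 3 a negative one (7.79%). Over the 59 genes the median log2 fold change was 0.00061, beside 0.0019 over all tested genes, and 30 values were positive and 29 negative. The gene nearest to the threshold was Nup210, with an adjusted p of 0.0608, and under 8 alternative settings it passed only when the filter on means was raised to 50 (adjusted p = 0.04998) or 100 (adjusted p = 0.0469).

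These transcripts are abundant and the implied standard errors of their fold changes are small, so the intervals are narrow. The median implied standard error was 0.07 on the log2 scale, against 0.15 over all tested genes and 0.08 over the 4813 genes with a mean of at least 1000. For 49 of the 59 genes (83.1%) the whole 95% interval lay within a 25% rise or the same fold down, and for 58 of 59 inside a 1.5-fold change. Among all tested genes 30.9% were inside the 25% bound, and among those with a mean of at least 1000, 75.8%. The gene outside 1.5-fold was Nup210l, which is expressed at a low level. Intervals are for single genes and were not widened for the number of genes. Over all tested genes, the fold changes divided by their implied standard errors had a robust spread of 1.31. The intervals were not widened for that spread either.

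**Figure D1:**
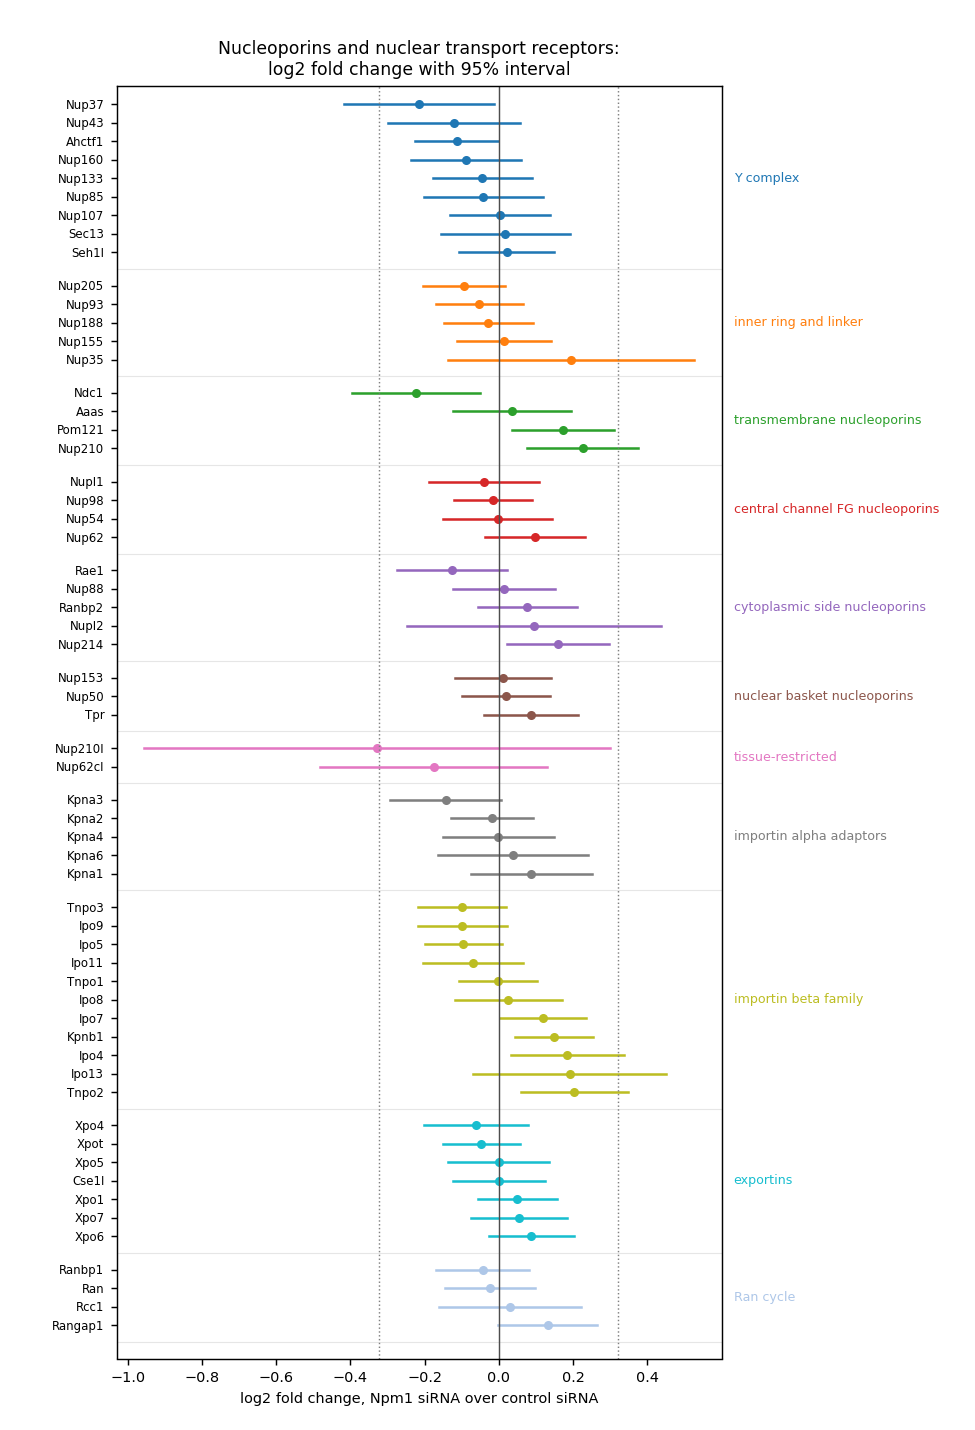
Log2 fold change (x axis, Npm1 siRNA over control siRNA) of each of the 59 tested genes, grouped and coloured by role, with points for the value and bars for the 95% interval implied by the deposited p. Dotted lines mark a 25% rise and the same fold down; 49 of the 59 bars lie between them, and Nup210l has the widest bar, from -0.95 to 0.30.

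**Figure D2:**
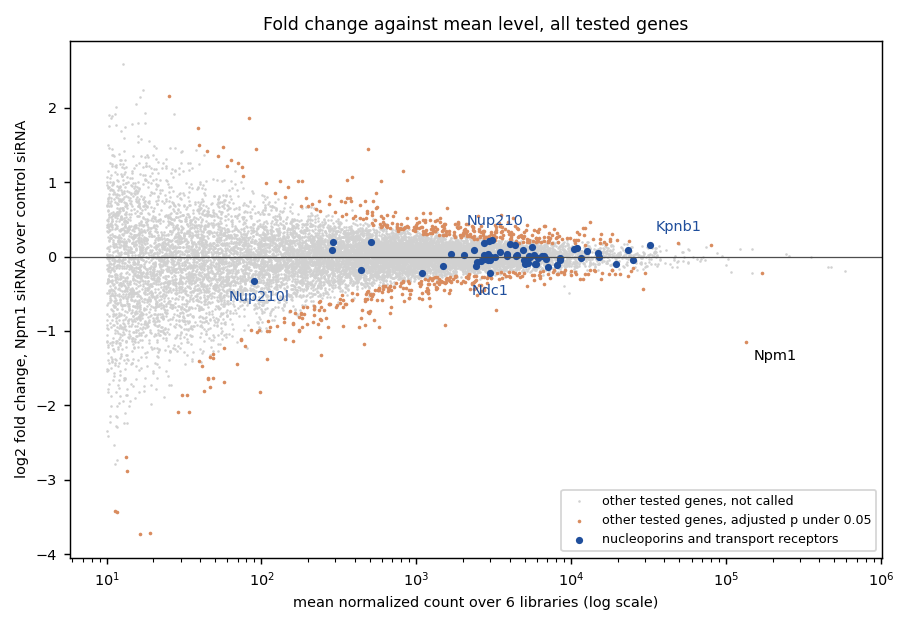
Log2 fold change (y axis) against the mean normalized count over 6 libraries (x axis, log scale) for all 14284 tested genes, with genes called at an adjusted p under 0.05 in orange and the nucleoporins and transport receptors in blue. The blue points lie along the centre line at means from 89.0 to 32172, Npm1 lies at a mean of 135425 and log2 -1.14, and genes with lower means reach log2 -3.73.

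The transmembrane nucleoporins, which anchor the pore in the nuclear envelope, gave 3 of the 10 lowest p-values and pointed both ways. The importin beta family gave 4 of those 10. An unadjusted p under 0.05 was found for 16.3% of all tested genes and for 23.9% of those with a mean of at least 1000. The count in a role of only 4 genes was not tested. Nup210 (chromosome 6, 91013068 to 91116829, GRCm38), the pore glycoprotein whose level is known to change during differentiation, stood at about 2839 normalized counts in control and 3320 after Npm1 siRNA. Its log2 fold change was 0.23 in the authors' deposited table, with an interval of 0.08 to 0.37 (p = 0.00289 unadjusted, Benjamini-Hochberg adjusted p = 0.0608). Its interval lay above 0, but 64 genes with smaller p-values were also not called. Ndc1 (chromosome 4, 107367784 to 107416346), a membrane protein needed for pore assembly, pointed the other way at a log2 fold change of -0.22 in the authors' deposited table (interval -0.40 to -0.05, Benjamini-Hochberg adjusted p = 0.142). Its level was about 3217 in control and 2756 after Npm1 siRNA. Pom121 (chromosome 5, 135376141 to 135394546), which acts early in building new pores, had a log2 fold change of 0.17 in the authors' deposited table (interval 0.04 to 0.31, Benjamini-Hochberg adjusted p = 0.154). With the dependence on length and GC content subtracted, the value of Nup210 was 0.15 (Benjamini-Hochberg adjusted p = 0.330). That of Ndc1 was then -0.21 and that of Pom121 0.07. Pom121 shares 11.9% of its exonic bases with Nsun5 on the opposite strand, and whether counting used strand is not given in the sources used here. Aaas, an adaptor bound to Ndc1, was near 0 at a log2 fold change of 0.04 in the authors' deposited table.

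In the outer ring, the Y complex that forms the scaffold on both faces of the pore, 0 of 9 genes passed. Over all tested genes 4.30% passed, so 0 calls in this or any other role of such size carry little information. Of the 9 values 6 were negative, as were 7083 of 14284 over all tested genes. The median log2 fold change was -0.04 beside 0.0019 for all tested genes. Nup37 (chromosome 10, 88146992 to 88178390), a peripheral subunit, was lowest at a log2 fold change of -0.22 in the authors' deposited table (interval -0.42 to -0.01, Benjamini-Hochberg adjusted p = 0.262). Ahctf1 (chromosome 1, 179744894 to 179803680), also called Elys, which seeds pores on chromatin after mitosis, had a log2 fold change of -0.11 in the authors' deposited table (interval -0.23 to -0.0011, Benjamini-Hochberg adjusted p = 0.301). Seh1l was the highest of the 9 at a log2 fold change of 0.02 in the authors' deposited table (interval -0.11 to 0.15). Sec13, which also serves in the coat of vesicles leaving the endoplasmic reticulum, was at 0.02 in the authors' deposited table. The core subunits Nup160, Nup133, Nup107 and Nup85 had log2 fold changes between -0.09 and 0.0029 in the authors' deposited table, and Nup43 was at -0.12.

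The inner ring, which holds the pore's waist together, gave no call among 5 genes. Nup205 had the lowest value, a log2 fold change of -0.09 in the authors' deposited table (interval -0.20 to 0.02), and its paralog Nup188 was at -0.03. Nup93, the linker that recruits the channel nucleoporins, was at -0.05 and Nup155 at 0.01 in the authors' deposited table. Nup35 had the highest value at 0.19 in the authors' deposited table, from a mean of only 292 normalized counts and with an interval of -0.14 to 0.53. Nup35 has a near-identical copy in the annotation, Gm4353, with 99.6% identity over 1547 bases, so its count is uncertain. Gm4353 itself had a mean of 1.12 in the authors' deposited table. Nup54, Ran, Tnpo1, Xpot and Xpo4 also have near-identical copies elsewhere in the annotation, at 97.3% to 99.1% identity. Ranbp1 shares 16.9% of its exonic bases on the same strand with the annotated gene Gm49776. The counts of these genes are uncertain in the same way.

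The FG nucleoporins of the central channel, which form the barrier that receptors cross, held within a narrow band. Nup62 (chromosome 7, 44816088 to 44830812) was at a log2 fold change of 0.097 in the authors' deposited table (interval -0.04 to 0.23), Nupl1, also called Nup58, at -0.04, Nup98 at -0.02 and Nup54 at -0.0032. For all 4 the interval lay inside the 25% bound, as for 75.8% of all tested genes with a mean of at least 1000. Nup98, whose precursor is cut into the mobile nucleoporin Nup98 and the Y complex subunit Nup96, therefore gives 1 value for both proteins. Nupl1 shares 48.8% of its exonic bases on the same strand with the annotated gene Gm49336, so its count is also uncertain.

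On the cytoplasmic side, where messenger RNA is released and Ran-GTP is hydrolysed, 0 of 5 genes passed. Nup214 (chromosome 2, 31974436 to 32053975), a docking site for Xpo1, had a log2 fold change of 0.16 in the authors' deposited table (interval 0.02 to 0.30, Benjamini-Hochberg adjusted p = 0.208), from about 4107 to 4589 normalized counts, and 0.10 with the dependence on length and GC content subtracted. Its partner Nup88 was at 0.01 in the authors' deposited table. Ranbp2, the large filament protein that holds SUMO-modified Rangap1, was at 0.08 (interval -0.06 to 0.21), and Rae1, an mRNA export factor bound to Nup98, at -0.13 (interval -0.27 to 0.02) in the authors' deposited table. Nupl2, also called Nup42, was weakly expressed, with a mean of 285 and a log2 fold change of 0.09 in the authors' deposited table (interval -0.25 to 0.44).

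The nuclear basket, which faces chromatin, gave 3 values close to 0. Tpr (chromosome 1, 150392838 to 150449935), the coiled-coil protein of the basket filaments, was at a log2 fold change of 0.09 in the authors' deposited table (interval -0.04 to 0.21). Nup50 was at 0.02 and Nup153 at 0.01 in the authors' deposited table, each with an interval inside the 25% bound. Nup210l and Nup62cl, paralogs of Nup210 and Nup62 best known from other tissues such as testis, had log2 fold changes of -0.33 (interval -0.95 to 0.30) and -0.17 (interval -0.48 to 0.13) in the authors' deposited table. Their means were 89.0 and 441 in the authors' deposited table, and both intervals reached beyond the 25% bound.

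Importin alpha proteins recognise the classical nuclear localisation signal and hand cargo to Kpnb1. Of 6 genes, Kpna7, an importin alpha of oocytes and early embryos, had a mean of 0.51 in the authors' deposited table and was not tested, and 0 of the other 5 passed. Kpna2 (chromosome 11, 106988629 to 106999541), the importin alpha known to predominate in embryonic stem cells and to carry Oct4, was at about 6117 in control and 6044 after Npm1 siRNA, a log2 fold change of -0.02 in the authors' deposited table (interval -0.13 to 0.09). Kpna3 was lowest at -0.14 in the authors' deposited table (interval -0.29 to 0.0060, Benjamini-Hochberg adjusted p = 0.336) and Kpna1 highest at 0.09 (interval -0.08 to 0.25). Per kilobase of transcript, Kpna2 made up 48.8% of the summed approximate level of the 5 tested genes in control and 49.6% after Npm1 siRNA, and Kpna3 29.9% and 27.9%. Kpna2 has 6 near-identical copies in the annotation, with up to 100% identity over 1968 bases. The highest of these copies had a mean of only 0.794 in the authors' deposited table, so few reads were assigned to them. Reads of Kpna2 that also match a copy could still have been left out.

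The importin beta family, the import receptors proper, had the widest spread of any role with more than 4 genes. Its interquartile range was 0.25 on the log2 scale against 0.08 for the exportins. That range was 0.22 for the 4 transmembrane nucleoporins, 0.30 over all tested genes and 0.17 over those with a mean of at least 1000. These differences in spread were not tested. No gene of 11 passed. Kpnb1 (chromosome 11, 97159714 to 97187881), the partner of importin alpha, stood at about 30507 normalized counts in control and 33837 after Npm1 siRNA. Its log2 fold change was 0.15 in the authors' deposited table, with an interval of 0.04 to 0.25 (Benjamini-Hochberg adjusted p = 0.0873). Tnpo2 (chromosome 8, 85036915 to 85057583), a transportin for RNA-binding proteins, had a log2 fold change of 0.20 in the authors' deposited table (interval 0.06 to 0.35, Benjamini-Hochberg adjusted p = 0.0908), while its close paralog Tnpo1 was at -0.0018 (interval -0.11 to 0.10). The difference between Tnpo2 and Tnpo1 was not tested. With the dependence on length and GC content subtracted, the value of Tnpo2 was 0.14.

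Several of the other import receptors are known carriers of ribosomal proteins and histones. Ipo4 (chromosome 14, 55625400 to 55635957) was at a log2 fold change of 0.18 in the authors' deposited table (interval 0.03 to 0.34, Benjamini-Hochberg adjusted p = 0.181), and it shares 55.3% of its exonic bases on the same strand with the annotated gene Gm49378. The value of Ipo4 was 0.12 with the dependence on length and GC content subtracted. Ipo7 (chromosome 7, 110018274 to 110056609) was at 0.12 in the authors' deposited table (interval 0.0040 to 0.24, Benjamini-Hochberg adjusted p = 0.285). Ipo5 and Ipo9 pointed the other way, at -0.096 and -0.098 in the authors' deposited table. Their intervals were -0.20 to 0.0088 and -0.22 to 0.02. Tnpo3, which imports splicing factors of the SR family, was the lowest of the 11 at -0.099 in the authors' deposited table (interval -0.22 to 0.02). Ipo13, a receptor that works in both directions, had a mean of 511 and a log2 fold change of 0.19 in the authors' deposited table (interval -0.07 to 0.45).

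Among the exportins 0 of 7 genes passed, and all 7 intervals lay inside the 25% bound. Of all tested genes with a mean of at least 1000, 75.8% also lay inside it. Xpo1 (chromosome 11, 23256041 to 23298249), also called Crm1, the receptor for leucine-rich export signals that carries nucleophosmin and both ribosomal subunits, was at about 14544 normalized counts in control and 15057 after Npm1 siRNA. Its log2 fold change was 0.05 in the authors' deposited table (interval -0.06 to 0.16). Cse1l, which returns importin alpha to the cytoplasm, was at 0.00061, Xpo5, the exportin for microRNA precursors, at -0.00036 and Xpot, the exportin for transfer RNA, at -0.05 in the authors' deposited table. Xpo6, which exports actin, was highest at 0.09 and Xpo4 lowest at -0.06 in the authors' deposited table.

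The Ran cycle supplies the gradient of Ran-GTP that gives transport its direction, and 0 of its 4 genes passed. Ran (chromosome 5, 129020069 to 129024323), the GTPase itself, was at a log2 fold change of -0.02 in the authors' deposited table (interval -0.15 to 0.099), or about 11739 normalized counts in control and 11550 after Npm1 siRNA. Rcc1, the chromatin-bound exchange factor that loads Ran with GTP, was at 0.03 and Ranbp1, which helps hydrolyse it, at -0.04 in the authors' deposited table. Rangap1 (chromosome 15, 81704248 to 81745530), the GTPase-activating protein, was highest at 0.13 in the authors' deposited table (interval -0.0017 to 0.26, Benjamini-Hochberg adjusted p = 0.315).

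Levels differed far more between the genes than between the groups. Per kilobase of the longest annotated transcript, the mean normalized count ran from 15.6 for Nup210l to 23105 for Ranbp1, and the median over the 59 genes was 940 against 173 over 12392 tested protein-coding genes. Ran (4806 per kilobase) and Ranbp1 lay far above Rcc1 (725 per kilobase). Within the Y complex, the levels per kilobase ranged from 517 for Nup133 to 1706 for Sec13. The longest annotated transcript of a gene need not be the one expressed. The channel nucleoporin Nup62 (3860 per kilobase) and the basket protein Tpr (3125 per kilobase) were the highest nucleoporins. Among the receptors Kpnb1 (5458 per kilobase), Ipo5 (4334 per kilobase), Kpna2 (2960 per kilobase) and Xpo1 (2465 per kilobase) led. Only pooled means exist, so the spread of these levels over samples, and which neighbours in the order differ beyond it, cannot be given.

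**Figure D3:**
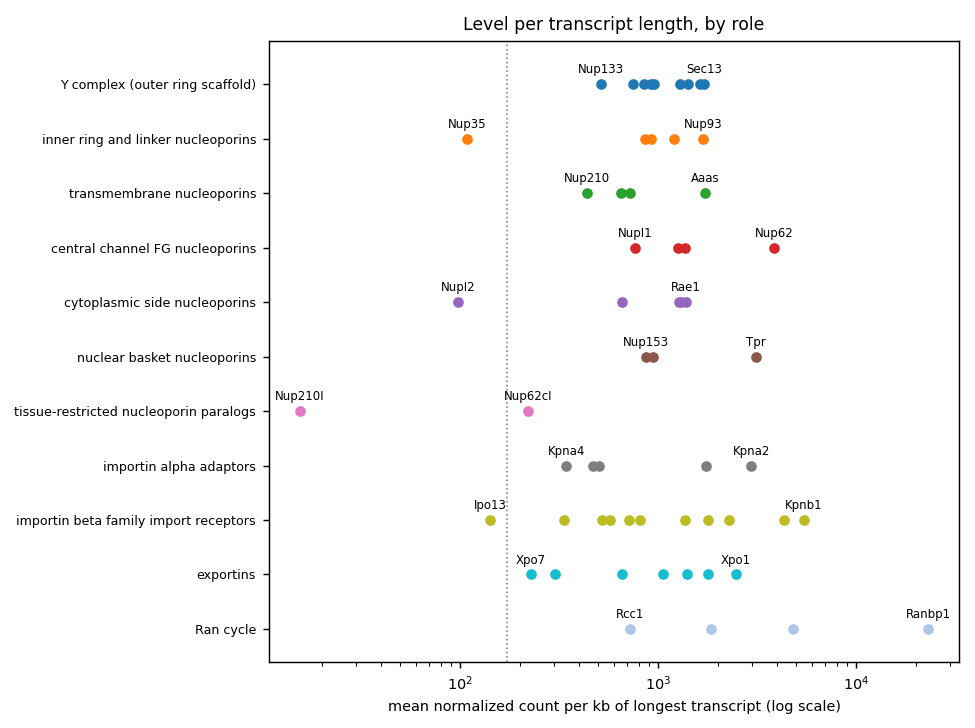
Mean normalized count per kilobase of the longest annotated transcript (x axis, log scale) for the 59 tested genes, 1 point per gene and 1 row per role, with the lowest and highest gene of each row named. The dotted line is the median of tested protein-coding genes at 173 per kilobase; Nup210l at 15.6 and Ranbp1 at 23105 are the ends of the range.

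Several genes with the highest fold changes have GC-rich transcripts. Across the 59 genes, the correlation of log2 fold change with GC content of the longest transcript was r = 0.34 (Spearman's rho = 0.25), as a description across genes of the same libraries, which are not independent replicates. The same correlation was r = 0.04 over 12392 tested protein-coding genes and 0.18 over the 4715 of them with a mean of at least 1000. Among the 20 genes with the highest GC content, from 48.9% to 57.6%, 14 values were positive, against 5 of the 19 in the middle range and 11 of the 20 with the lowest. Of protein-coding genes with a mean of at least 1000, 57.2% of 1886 in that high GC range had positive values, against 45.8% of 1047 in the middle range and 50.9% of 1104 in the lowest. The difference between the set and these genes was not tested. After subtraction of a fitted dependence on length and GC content, estimated over all genes, the log2 fold change of Nup210 went from 0.23 to 0.15 (Benjamini-Hochberg adjusted p = 0.330) and that of Kpnb1 from 0.15 to 0.14 (Benjamini-Hochberg adjusted p = 0.119). That of Tnpo2 went from 0.20 to 0.14 (Benjamini-Hochberg adjusted p = 0.342) and that of Ipo4 from 0.18 to 0.12 (Benjamini-Hochberg adjusted p = 0.501). Larger relative shifts were seen, among others, for Pom121, from 0.17 to 0.07, Nup62, from 0.097 to 0.04, Xpo1, from 0.05 to 0.03, and Nup214, from 0.16 to 0.10. Some negative values shrank, such as Nup93 from -0.05 to -0.02, and others grew in size, such as Xpo4 from -0.06 to -0.08. The small values of Kpna2 and Ranbp1, which were not called, changed sign, from -0.02 to 0.03 and from -0.04 to 0.03. The part of base composition in these values was not tested further.

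**Figure D4:**
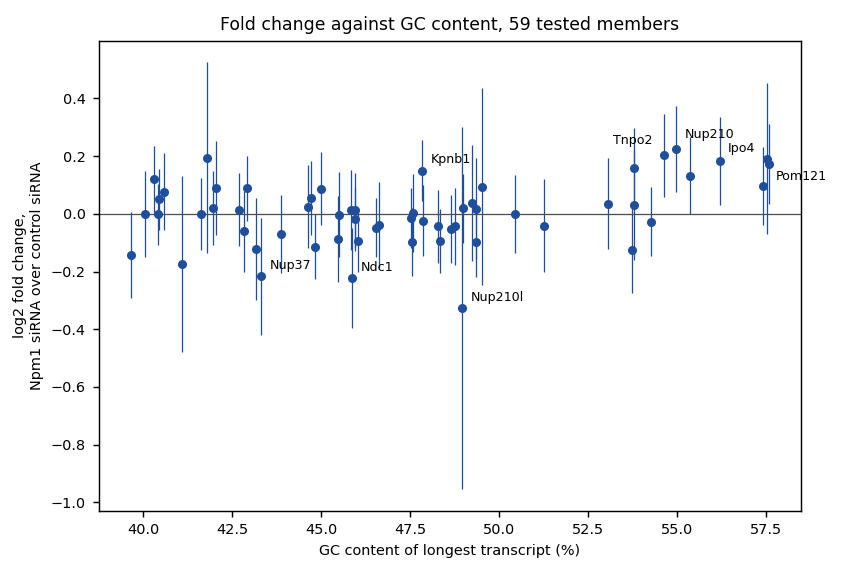
Log2 fold change with its 95% interval (y axis) against the GC content of the longest annotated transcript (x axis, percent) for the 59 tested genes, 1 point per gene. Nup210, Tnpo2, Pom121 and Ipo4, with positive values of 0.17 to 0.23, lie at the GC-rich end. Ndc1 and Nup37, both at -0.22, lie below 46% GC. Other genes lie elsewhere: Nup35, at 0.19, has 41.8% GC, and Nup210l, the lowest at -0.33, has 48.9% GC.

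RefSeq promoter windows (GRCm38.p6, 250 bases before to 50 after an annotated start) were matched by symbol to 48 of the 59 genes. Each was searched on both strands for 7 short motifs: NRF1 (GCATGCGC), ETS (CCGGAAG), the E-box (CACGTG), the CCAAT box (CCAAT), the GC box (GGGCGG), YY1 (AAGATGG) and the TATA box (TATAAA). The NRF1 letters were in 8 of the 48 (16.7%) against 6.21% of 10226 tested genes with a window and 3.05% of all 27025 genes with a RefSeq window. These 8 included Ran, Ranbp1 and Rcc1 of the Ran cycle, and their log2 fold changes ran from -0.04 to 0.097 in the authors' deposited table. The NRF1 letters contain CG, and the members' windows are richer in CG, with a median of 27.5 per gene against 22 in tested genes. The part of base composition in the NRF1 share was not tested. The E-box was in 9 of 48 (18.8%, against 11.9% of tested genes), and the GC box in 34 of 48 (70.8%, against 68.7%). For the CCAAT box the shares were 45.8% and 43.2%, for ETS 18.8% and 20.0%, for YY1 8.33% and 8.48% and for the TATA box 10.4% and 8.63%. Overlapping matches of different motifs were counted for each, and the 2 strands of the palindromic E-box count once. A gene with several windows was counted if any of them held the letters. A match is a description of letters in the window and not a bound site.

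Sequences are shown for Nup210 and Kpnb1, the genes with the lowest p-values, and for Ran, whose window holds the NRF1 letters on both strands, with every match to a searched motif in capitals. They run 5′ to 3′ on the gene's strand and stop before the first annotated exon. The Nup210 window (chr6:91116830-91117076, minus strand) has 2 GC boxes, the Kpnb1 window (chr11:97187893-97188142, minus strand) has 3 CCAAT boxes and 2 GC boxes, and the Ran window (chr5:129019906-129020068, plus strand) has 2 overlapping NRF1 matches, 1 E-box and 3 GC boxes.
Nup210: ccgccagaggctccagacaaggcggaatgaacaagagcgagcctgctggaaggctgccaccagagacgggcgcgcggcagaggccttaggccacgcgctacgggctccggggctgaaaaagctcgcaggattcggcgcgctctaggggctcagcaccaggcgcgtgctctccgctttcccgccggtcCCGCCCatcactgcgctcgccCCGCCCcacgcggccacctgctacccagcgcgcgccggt
Kpnb1: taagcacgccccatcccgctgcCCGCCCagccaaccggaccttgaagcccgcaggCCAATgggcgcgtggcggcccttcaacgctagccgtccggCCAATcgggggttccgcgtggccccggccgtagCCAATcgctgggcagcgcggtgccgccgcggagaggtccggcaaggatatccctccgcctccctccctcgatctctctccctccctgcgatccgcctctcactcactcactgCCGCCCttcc
Ran: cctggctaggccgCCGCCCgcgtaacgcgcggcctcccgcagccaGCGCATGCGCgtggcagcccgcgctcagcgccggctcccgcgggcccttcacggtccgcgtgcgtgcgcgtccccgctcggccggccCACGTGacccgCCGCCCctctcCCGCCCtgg

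Other genes of nuclear transport outside the naming rule gave a few calls. A list of 49 genes covered mRNA export, small RNA export and Ran cofactors. Of its 47 tested genes, 2 were higher and 0 lower, with a median log2 fold change of -0.0018. Over all tested genes 2.23% were higher and 2.07% lower (4.30% together), so these counts carry little information about the list. Mcm3ap (chromosome 10, 76468927 to 76515857), the Ganp protein that scaffolds an mRNA export complex at the pore, rose to 123% of control (log2 0.30 in the authors' deposited table, interval 0.17 to 0.42, Benjamini-Hochberg adjusted p = 0.000489). Zc3h11a, a zinc finger protein of mRNA export, rose to 130% (log2 0.38 in the authors' deposited table, interval 0.15 to 0.61, Benjamini-Hochberg adjusted p = 0.0296). Zc3h11a shares 72.8% of its annotated exonic bases with the overlapping gene Gm38394 and also meets Zbed6, so its reads are not all its own. The call of Zc3h11a was lost with no filter on low values (Benjamini-Hochberg adjusted p = 0.0521), with Benjamini-Yekutieli adjustment (adjusted p = 0.3004), against a fold of 1.1 (adjusted p = 0.920) and with rescaled z values (adjusted p = 0.364), and it had no value with the length and GC dependence subtracted. That of Mcm3ap was lost against a fold of 1.1 (adjusted p = 0.560) and with rescaled z values (adjusted p = 0.0543). Of the 47, 19.1% had an unadjusted p under 0.05, against 16.3% of all tested genes. Of these 9 genes, 4 had positive and 5 negative values. Thoc5, a subunit of the THO complex of mRNA export, was nearest to the threshold of those not called, at a log2 fold change of -0.28 in the authors' deposited table (Benjamini-Hochberg adjusted p = 0.0621). Hikeshi, which imports heat shock protein 70, was at -0.32 (Benjamini-Hochberg adjusted p = 0.130), and Nxf2, at a mean of only 11.6, was at -2.28 (Benjamini-Hochberg adjusted p = 0.134) in the authors' deposited table. Nxf1, the main mRNA export receptor, was at a log2 fold change of 0.17 (adjusted p = 0.142 by Benjamini-Hochberg) and Nutf2, which imports Ran, at -0.07 in the authors' deposited table.

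Of 23 genes for pore assembly and its membrane partners, 1 was higher and 1 lower, with a median log2 fold change of 0.04. Sun1, an inner nuclear membrane protein that associates with pores, rose to 115% of control (log2 0.20 in the authors' deposited table, interval 0.08 to 0.32, Benjamini-Hochberg adjusted p = 0.0380). Rtn3, a reticulon that curves membranes, fell to 83.4% (log2 -0.26 in the authors' deposited table, interval -0.42 to -0.11, Benjamini-Hochberg adjusted p = 0.0269). Both calls were lost with Benjamini-Yekutieli adjustment (adjusted p = 0.385 for Sun1 and 0.273 for Rtn3), against a fold of 1.1 and with rescaled z values, and that of Sun1 also with no filter on low values (adjusted p = 0.0666). These lists are short, and 2.23% and 2.07% of all tested genes were called in the same directions.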

How the data were processed

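Poly(A)-selected, stranded RNA libraries of 6 samples, 3 per siRNA, were analysed; groups came from the sample titles. FastQC, Trimmomatic 0.36, STAR and DESeq2, with GRCm38 (mm10), are named per the submitters' processing notes. Read counting, annotation and model settings: not given in the sources used here. The file holds 1 row per gene. Its mean is a signal value, per the file headers a normalized count averaged by the authors over all libraries. The log2 fold change and the unadjusted p-value are the authors' deposited values; no value per library was used.

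Benjamini-Hochberg adjustment of the deposited p-values ran over 14284 genes with a mean of at least 10, with calls under 0.05. Each standard error divides the log2 fold change by the z value that its p implies, which assumes a Wald test. Coordinates, lengths, GC content and exon overlaps came from GENCODE M21 (GRCm38), which matched all 59 tested members and 97.4% of tested genes by a unique symbol. Near-identical copies are annotated transcripts of other genes with at least 95% identity over 200 bases (blastn 2.17.0). Computations used Python 3.11.15 and scipy 1.17.1. The code was run on simulated data with normal errors, which cannot show whether the implied standard errors hold for these libraries. Library depth is unknown; mean counts summed to 27631017, of which the 60 members hold 1.33%. Members, gene lists and motifs were chosen with earlier results of these data known. Named genes are those called, those of highest and lowest fold change or highest level in each role, and those with the 10 smallest p-values; other members named for their role were added with values seen. Alternatives were other filters, another adjustment, recentring, a length and GC trend, a test against a fold of 1.1 and a rescaled spread. Protein features were not analysed here.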

Additional observations from a re-analysis of the deposited data

How the results depend on the processing

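No paired analysis was possible because the table holds no value per library, so neither the replicate block nor leaving out a replicate was run. Among the 59 tested members, 0 were called lower under all 8 alternatives run. The count called higher was 0 in the main result and 1, Nup210, with a mean of at least 50 and also 1 with a mean of at least 100. These filters test fewer genes. The median log2 fold change of the members stayed between -0.0013 and 0.020. The count over all tested genes, 614 in the main result, was 230 (121 higher, 109 lower) with Benjamini-Yekutieli adjustment, 84 (38 and 46) against a fold of 1.1 and 113 (65 and 48) with z values divided by their robust spread of 1.31. These 3 settings are stricter by construction. Among the other nuclear transport and pore assembly genes, 3 higher and 1 lower in the main result became 1 and 0 with Benjamini-Yekutieli adjustment and 0 and 0 against a fold of 1.1 and with rescaled z values. With no filter on low values 1 was higher, and with a mean of at least 100, 2 were lower. Sun1 was also no longer called once the length and GC trend was subtracted (adjusted p = 0.0577). Depth limits the genes with low means: Nup210l, with a mean of 89.0, had an interval that reached beyond a 1.5-fold change.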
